A study of Mus musculus with 17 samples.

Results

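The genes described here are 10 mouse chemokines of the CXC and CX3C classes, defined by their symbols and not by a measured value: Cxcl1, Cxcl2, Pf4, Cxcl5, Cxcl9, Cxcl10, Cxcl12, Cxcl14, Cxcl16 and Cx3cl1. All 10 have a row of their own among the 31647 features of the count table. The mice were male C57BL/6J wild-type animals, 8 to 11 weeks old at surgery. The infarct zone (IZ) group held 9 libraries, each from the infarcted wall of the left ventricle (LV) at 5 days after the left anterior descending coronary artery was tied off for good, an experimental myocardial infarction (MI). The sham group held 8 libraries of LV tissue at the same time after an operation that spared the artery. The labels give no treatment beyond the surgery.

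Chemokines are small secreted proteins that guide migrating cells by binding receptors on their surface. The spacing of the first cysteines names the class: in a CXC chemokine 1 residue stands between them, in the CX3C chemokine 3 residues do. CXC chemokines that carry the residues glutamate, leucine and arginine (ELR) just before the first cysteine act mainly on neutrophils through Cxcr2, while those without ELR reach T cells, NK cells, monocytes, progenitor cells and endothelium through other receptors. In an infarct, neutrophils arrive first and give way to monocytes and macrophages while fibroblasts build the scar.

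The coding sequence around these cysteines shows how the members divide, and is printed here because the classes order the results. In the GENCODE transcripts Cxcl1, Cxcl2 and Cxcl5 encode ELR before the first cysteine and the other 7 members do not. Cx3cl1 has 3 residues between the cysteines and the other 9 members have 1. The stretches below read 5′ to 3′ along the mRNA, with the 2 cysteine codons in capitals. On GRCm38 they lie in exon 2 of their transcripts, at chr5:90891478-90891507 (+) for Cxcl1, chr5:90759709-90759738 (+) for Cxcl5, chr5:92348178-92348207 (−) for Cxcl10, chr6:117171490-117171519 (+) for Cxcl12, chr11:70459124-70459153 (−) for Cxcl16 and chr8:94778033-94778068 (+) for Cx3cl1.
Cxcl1: atcgccaatgagctgcgcTGTcagTGCctg
Cxcl5: gccgcaacggagctgcgtTGTgttTGCtta
Cxcl10: ctcgcaaggacggtccgcTGCaacTGCatc
Cxcl12: gtcagcctgagctaccgaTGCcccTGCcgg
Cxcl16: ggcagtgtcgctggaagtTGTtctTGTgat
Cx3cl1: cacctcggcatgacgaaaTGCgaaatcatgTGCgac

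Gene expression was measured by MACE-Seq, which counts sequence tags from the 3′ ends of mRNAs, so a gene's count does not grow with its length and levels can be set side by side between genes. Levels are given in CPM, tag counts scaled to a common library total, after TMM scaling, which corrects each total for the library's makeup. Library totals ran from 1237675 to 4738307 counts. Mitochondrially encoded features took 22.9 to 32.4% of the counts in sham, 19.5% in IZ replicate 1 and 4.22 to 6.78% in the other IZ libraries. IZ replicate 1 stood apart in muscle genes too: the summed level of 10 cardiomyocyte markers was 35927 CPM there, 3347 to 8420 CPM in the other IZ libraries and 85650 to 109924 CPM in sham. Some of the values that this library moves are therefore also given without it. Others, such as the fold changes of cardiomyocyte markers, are given with it only. In whole tissue, fewer cells of a type and less RNA per cell cannot be told apart.

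At 5d post-MI, 5 of the 10 chemokines were upregulated in the IZ (Cxcl5, Cxcl10, Cxcl16, Pf4 and Cx3cl1), Cxcl1 was downregulated, and Cxcl9, Cxcl12 and Cxcl14 did not pass the test. Cxcl2 was too low to be tested. These calls come from edgeR's quasi-likelihood test with an adjusted p under 0.05 over 12301 genes. In that comparison 69.5% of all genes tested were called in either direction, 36.3% higher and 33.1% lower, so the 6 calls among 9 tested members were close to the share of all genes. The 9 tested members had a median log2 fold change of 1.42, beside 0.05 over all genes tested. Cxcl5 and Cxcl10, with 8 and 10 counts over the sham libraries, passed the filter on low counts through the IZ alone. Nothing is therefore read from that median. In 4 members (Pf4, Cxcl5, Cxcl16 and Cx3cl1) all 9 IZ libraries lay above every sham library, which held for 16.6% of all genes tested. Since Cxcl5 is 1 of these 4, nothing is read from that count beside the share either.

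**Figure D1:**
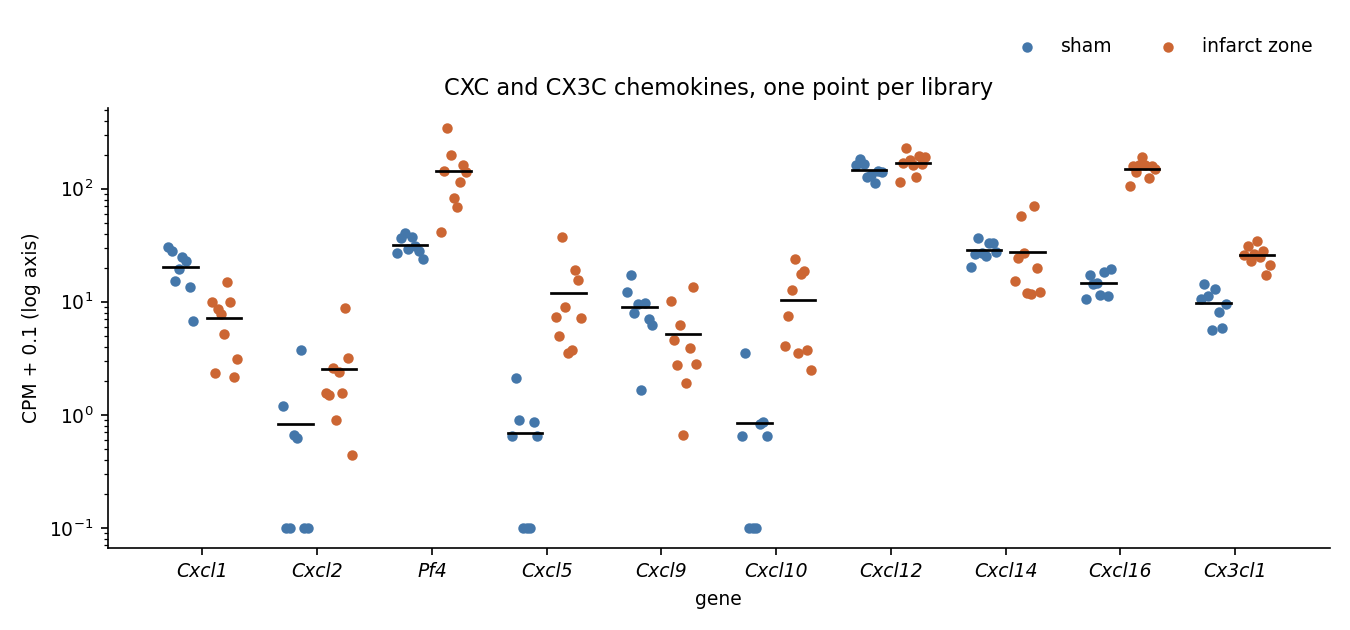
Level of each chemokine in CPM plus 0.1 on a log axis, with 1 point per library (8 sham, 9 IZ) and a black line at each group's mean. The IZ points of Pf4, Cxcl5, Cxcl16 and Cx3cl1 lie above all sham points, while those of Cxcl9, Cxcl12 and Cxcl14 overlap them.

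Among the ELR chemokines, which draw neutrophils, Cxcl1 was the highest of the 3 in all 8 sham libraries and in 3 of the 9 IZ libraries, with Cxcl5 above it in the other 6. It measured 6.67, 21.2 and 30.1 CPM in sham (lowest, median, highest) and 2.07, 7.72 and 14.9 CPM in the IZ. The ranges overlapped, and 4 of the 9 IZ libraries lay below every sham library. Cxcl1 fell by 1.52 on the log2 scale (SE 0.33, 95% interval -2.17 to -0.86, edgeR adjusted p = 0.000316), to a mean of 7.02 ± 4.29 CPM (SD, n = 9) from 20.03 ± 7.93 CPM (SD, n = 8). The size of that drop depends on the scaling: with total counts alone the log2 fold change was -0.44 (edgeR adjusted p = 0.209).

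Cxcl5, a neutrophil attractant made by epithelial and stromal cells, was close to absent in sham hearts, with 0 to 3 counts per library and 8 counts over all 8 libraries. In the IZ it had 6 to 227 counts per library. Its level was 0, 0.55 and 2.04 CPM in sham (lowest, median, highest) and 3.40, 7.25 and 37.4 CPM in the IZ. No IZ library reached down to the sham range. Cxcl5 rose by 4.31 on the log2 scale (SE 0.68, 95% interval 2.97 to 5.65, edgeR adjusted p = 6.32e-06), the largest among the tested members. The 3 sham libraries without a Cxcl5 count would have shown 3 counts as 1.55 to 2.21 CPM. IZ replicate 3 alone gave 227 of the 429 counts, and without it the mean level in the IZ was 8.70 in place of 11.9 CPM.

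Cxcl2, the closest relative of Cxcl1 in function, stayed at the detection limit. It had 0, 0, 0, 0, 1, 1, 2 and 5 counts in the 8 sham libraries, and 1 to 16 counts in the IZ libraries with a median of 4. In CPM the highest sham library (3.68) lay above all IZ libraries but replicate 7 (8.68). The filter on low counts removed it. Without that filter its log2 fold change was 1.73 (SE 0.68, edgeR adjusted p = 0.0408), and DESeq2's Wald test gave 1.77 (adjusted p = 0.0368).

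Ratios taken within a library hardly depend on scaling, and they showed that Cxcl5 and Cxcl2 changed differently from Cxcl1. The mean log2 ratio of Cxcl5 to Cxcl1 (log2 CPM with a prior count of 1) was -4.59 in sham (SD 1.27, n = 8) against 0.58 in the IZ (SD 1.42, n = 9). All 9 IZ libraries lay above all sham libraries, a difference of 5.17 (exact two-sided permutation test over 24310 assignments, p = 8.23e-05, adjusted over 6 ratios p = 0.000247). The ratio of Cxcl2 to Cxcl1 rose by 3.16 (exact permutation p = 0.000247, adjusted p = 0.00037), above all sham libraries in 7 of 9 IZ libraries. In sham Cxcl5 had 0 to 3 and Cxcl2 0 to 5 counts per library, so the size of these differences depends on the prior count. For the ratio of Cxcl5 to Cxcl2 both genes were that low in sham, and nothing is read from its difference of 2.01 (exact permutation p = 0.0222, adjusted p = 0.0266), which missed the threshold when sham replicate 4, 5 or 6 was left out (adjusted p of 0.050 to 0.0575).

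Cxcl1, Cxcl2, Cxcl5 and Pf4 are neighbours on chromosome 5, all on the + strand within 147 kb (chr5:90759360-90905938, GRCm38). Cxcl1 was called lower while Cxcl5 and Pf4 were called higher. Letters that match a motif of NF-κB, a factor that drives many inflammatory genes, stand in front of both Cxcl1 and Cxcl2. Spelled GGANNTTCC and sought on both strands from 250 bases before to 50 after the start in RefSeq's promoter table (GRCm38.p6), it was found in 3 of the 8 members listed there and in 4.26% of 32851 promoters. The matches are printed with 30 bases of context and the motif in capitals, since 1 of these 3 genes was called lower and another higher. They begin 70, 96 and 158 bases before the start of Cxcl1 (chr5:90891165-90891194, +), Cxcl2 (chr5:90903793-90903822, +) and Cxcl10 (chr5:92349028-92349057, −).
Cxcl1: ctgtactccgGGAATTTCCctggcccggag
Cxcl2: ctgagctcagGGAATTTCCctggtccccgg
Cxcl10: gaggggagagGGAAATTCCaagttcatggg

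Of 13 known NF-κB targets and feedback genes, 10 were tested, of which 8 were higher and 1 lower, with a median log2 fold change of 0.95. Of all genes tested, 36.3% were higher and 33.1% lower. The cytokine gene Il1b had the highest value (2.93, SE 0.54, edgeR adjusted p = 4.17e-05). Il1b had 16 counts over the sham libraries and passed the filter on low counts through the IZ. Sod2, the mitochondrial superoxide dismutase, had the lowest (-2.83, SE 0.25, edgeR adjusted p = 1.24e-09). The IZ mean of Sod2 was 82.7 CPM, and 65.3 CPM without IZ replicate 1. Nfkbia did not pass (0.15, edgeR adjusted p = 0.425). For the untested genes, mean levels in sham and the IZ were 0.90 and 0.42 CPM for Tnf, 0.44 and 4.03 CPM for Il6, and 1.68 and 5.85 CPM for Ptgs2. The part of NF-κB in these levels was not tested.

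Some neutrophil markers differed between the groups too. All 4 tested of 10 neutrophil markers were higher in the IZ, from S100a9 (log2 fold change 2.93, edgeR adjusted p = 9.46e-05) to the granulocyte growth factor receptor Csf3r (5.17, edgeR adjusted p = 5.08e-08). Of all genes tested, 36.3% were higher. The 4 had 3 to 52 counts over the sham libraries and passed the filter on low counts through the IZ. Of the untested markers, Camp had 1 count in sham and 5 in the IZ, Ngp 2 and 1, and Ltf 2 and 2. Retnlg had 4 and 34, and Stfa2l1 0 and 16. The summed level of the 10 was 5.00 to 12.2 CPM in sham and 15.9 to 221 CPM in the IZ, with Ly6g at 0 in all sham libraries and at 3 counts in the whole IZ group. The sum was highest in IZ replicates 7 (221 CPM) and 3 (174 CPM), the libraries with the highest Cxcl5 (19.0 and 37.4 CPM). The third highest sum was in replicate 2 (91.7 CPM), where Cxcl5 was 4.87 CPM, below the IZ median. The part of neutrophils in these levels was not tested.

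Pf4 (platelet factor 4, also called Cxcl4) is stored in platelet granules and is also made by macrophages. It measured 23.9, 29.9 and 40.4 CPM in sham (lowest, median, highest) and 40.9, 142 and 344 CPM in the IZ. Every IZ library lay above every sham library, but IZ replicate 1 only just. Pf4 rose by 2.20 on the log2 scale (SE 0.30, 95% interval 1.61 to 2.80, edgeR adjusted p = 8.17e-07). Without replicate 1 that value was 2.30. The spread in the IZ was wide, with 344 CPM in replicate 3 and 199 CPM in replicate 4 against 68.6 CPM in replicate 6.

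Other platelet genes were low in both groups. The summed level of 10 platelet and megakaryocyte markers was 2.21 to 21.0 CPM in sham and 8.50 to 19.2 CPM in the IZ. Only Gp1bb passed the filter on low counts, and it was higher (log2 fold change 3.34, SE 0.45, edgeR adjusted p = 5.83e-07). Gp1bb had 6 counts over the sham libraries and 155 over the IZ libraries, and passed that filter through the IZ. Gp1ba, which encodes another chain of the same platelet receptor, had 35 counts over the sham libraries and 12 over the IZ libraries, and without the filter its log2 fold change was -2.60 (edgeR adjusted p = 0.000798). Ppbp, the other main platelet chemokine, had 34 counts over the sham libraries and 114 over the IZ libraries, 0 to 6.79 CPM and 1.09 to 6.92 CPM. Macrophage markers were all called higher (10 of 10, beside 36.3% of all genes tested), from the mannose receptor Mrc1 (log2 fold change 1.145) to Ms4a7 (4.48). Their sum was 476 to 685 CPM in sham and 2921 to 7149 CPM in the IZ, lowest in replicate 1, the IZ library with the least Pf4 (40.9 CPM). It was highest in replicate 8, where Pf4 was 161 CPM, and stood at 5743 CPM in replicate 3, which had the most Pf4 (344 CPM). Their part in the Pf4 level was not tested.

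Cxcl9 and Cxcl10 are the interferon-inducible ligands of Cxcr3, the receptor of activated T and NK cells, and sit side by side on the − strand of chromosome 5 within 27.5 kb (chr5:92321347-92348889, GRCm38). They differed in these hearts. Sham libraries held 0 to 5 counts of Cxcl10 and IZ libraries 6 to 121, or 0, 0.55 and 3.39 CPM against 2.37, 7.38 and 24.0 CPM (lowest, median, highest). All IZ libraries but replicate 9 lay above the highest sham library. Its log2 fold change was 3.81 (SE 0.65, 95% interval 2.53 to 5.08, edgeR adjusted p = 1.73e-05). Cxcl10 sat at the edge of the filter on low counts and was no longer tested when any of IZ replicates 1 to 8 was left out.

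Cxcl9 was the more abundant of the pair in sham hearts, at 1.55, 8.70 and 17.0 CPM, and measured 0.57, 3.80 and 13.4 CPM in the IZ. The ranges overlapped almost fully. Its log2 fold change was -0.80 (SE 0.41, 95% interval -1.61 to 0.01, edgeR adjusted p = 0.0887) and turned to 0.24 with total counts alone (adjusted p = 0.565). Without IZ replicate 1, which held the second highest IZ level (10.1 CPM), Cxcl9 was called lower (-1.02, edgeR adjusted p = 0.0201). It was likewise called lower without sham replicate 5 (-0.98, adjusted p = 0.0315) or without IZ replicate 8 (-1.03, adjusted p = 0.0236).

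The ratio between these Cxcr3 ligands differed between the groups. In sham the mean log2 ratio of Cxcl10 to Cxcl9 was -3.28 (SD 0.96, n = 8), and in the IZ it was 0.96 (SD 1.69, n = 9). All 9 IZ libraries were above all sham libraries, with a difference of 4.25 (exact permutation p = 0.000123, adjusted p = 0.000247). In sham Cxcl10 had 0 to 5 counts per library, so the size of this difference depends on the prior count. Cxcl10 is overlapped on the opposite strand by Art3, which had 2788 counts over the sham libraries and 746 over the IZ libraries, in the opposite direction to Cxcl10. Whether the counting used strand is not given in the sources used here.

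Both promoters hold a match to an interferon response motif (GAAANNGAA on either strand, present in 8.56% of all promoters), as does that of Cxcl14. The matches start 175 bases before Cxcl9 (chr5:92328235-92328264, −), 213 before Cxcl10 (chr5:92349083-92349112, −) and 172 before Cxcl14 (chr13:56296704-56296733, −). They are shown because, of the 3 genes that share the letters, Cxcl10 was called higher while Cxcl9 and Cxcl14 did not pass the test.
Cxcl9: ccgtttatgtGAAATGGAAgtagaacatgc
Cxcl10: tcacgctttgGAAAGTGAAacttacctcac
Cxcl14: gtgtccacagGAAACAGAAaagcagcaccc

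Interferon gamma, the main inducer of Cxcl9, had no count in sham and 2 counts in all IZ libraries together. Among 4 tested genes of interferon gamma signalling and its inducers, 2 were higher and 1 lower, beside 36.3% and 33.1% of all genes tested. The cytokine gene Il18 was highest (2.37, edgeR adjusted p = 9.34e-06). Il18 had 20 counts over the sham libraries and passed the filter on low counts through the IZ. The receptor chain gene Ifngr2 was lowest (-0.94, edgeR adjusted p = 9.77e-06), and with total counts alone it stood at 0.12. None of 10 T and NK cell markers reached the filter. Their sum was 0.56 to 5.54 CPM in sham and 8.13 to 35.2 CPM in the IZ.

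Cxcl12, the stromal ligand of Cxcr4 that holds and recruits progenitor cells and lymphocytes, was the most abundant member in both groups. It measured 113, 141 and 183 CPM in sham (lowest, median, highest) and 114, 167 and 227 CPM in the IZ. Only 3 of the 9 IZ libraries lay above all sham libraries. The log2 fold change was 0.23 (SE 0.13, 95% interval -0.04 to 0.49, edgeR adjusted p = 0.139). Without IZ replicate 1 it was 0.25 (edgeR adjusted p = 0.0517). With total counts alone the value was 1.32 (adjusted p = 6.07e-08) and with upper quartile scaling 0.34 (adjusted p = 0.0321).

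Cxcl14, a chemokine of fibroblasts and epithelia whose receptor is debated, had similar means in the groups but a wider spread in the IZ. It measured 20.3, 27.0 and 36.4 CPM in sham and 11.6, 19.6 and 70.5 CPM in the IZ. In the IZ, 5 libraries lay below every sham library, and replicates 7 (70.5 CPM) and 3 (57.0 CPM) lay above. The means were 28.6 ± 5.23 CPM (SD, n = 8) and 27.7 ± 21.4 CPM (SD, n = 9). The log2 fold change was -0.03 (SE 0.32, 95% interval -0.65 to 0.59, edgeR adjusted p = 0.934), and with total counts alone it was 1.08 (adjusted p = 0.00345). The log2 ratio of Cxcl14 to Cxcl12 differed by -0.54 between IZ and sham (exact permutation p = 0.0986, the same after adjustment). It passed when IZ replicate 3 (-0.66, adjusted p = 0.0499) or IZ replicate 7 (-0.72, adjusted p = 0.0188) was left out.

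The scaling sets where these values lie against 0. With total counts alone the median log2 fold change over all genes tested moved to 1.14. Relative to each scaling's own median the members kept their values, with Cxcl1 at -1.57 and -1.58, Cxcl12 at 0.17 and 0.18, Cxcl9 at -0.85 and -0.90 and Cxcl14 at -0.09 and -0.06 (TMM and total counts alone).

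**Figure D2:**
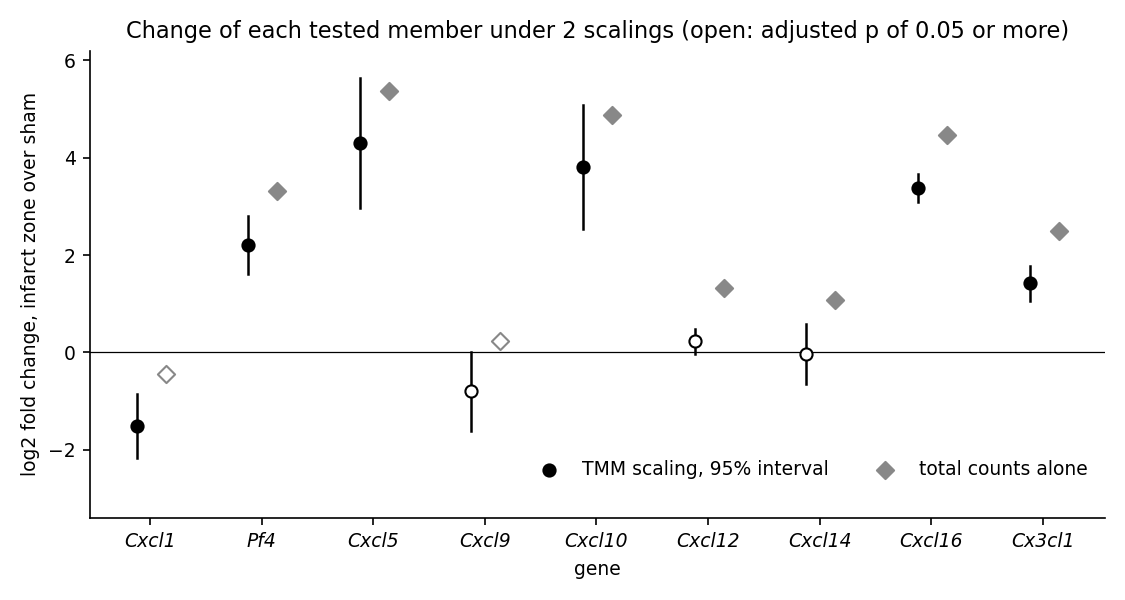
Log2 fold change of IZ over sham for the 9 tested members, as circles with 95% intervals under TMM scaling and as diamonds under total counts alone, filled where the adjusted p was under 0.05. The diamonds stand above the circles in all 9, which takes away the call of Cxcl1 (-0.44) and adds those of Cxcl12 (1.32) and Cxcl14 (1.08).

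Cxcl16 and Cx3cl1 (fractalkine) are the members made as membrane proteins, which hold leukocytes at the cell surface and are released as soluble chemokines by the proteases Adam10 and Adam17. Both were upregulated, Cxcl16 more than Cx3cl1. Cxcl16, the ligand of Cxcr6 and a scavenger receptor for oxidized lipoprotein, measured 10.4, 14.4 and 19.4 CPM in sham (lowest, median, highest) and 106, 159 and 189 CPM in the IZ. The groups stood far apart, and the lowest IZ library was replicate 1. Cxcl16 rose by 3.38 on the log2 scale (SE 0.15, 95% interval 3.09 to 3.68, edgeR adjusted p = 9.66e-14), or 10.4-fold. It had the smallest SE of the upregulated members. Zmynd15, a gene on the opposite strand that overlaps Cxcl16, had 22 counts over the sham and 359 over the IZ libraries, against 199 and 4876 for Cxcl16.

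Cx3cl1 measured 5.58, 9.92 and 14.3 CPM in sham and 17.0, 25.7 and 33.98 CPM in the IZ. The groups did not overlap, and the lowest IZ library was replicate 8. The log2 fold change was 1.42 (SE 0.19, 95% interval 1.06 to 1.78, edgeR adjusted p = 4.17e-07), or 2.68-fold. In sham the mean log2 ratio of Cx3cl1 to Cxcl16 was -0.60 (SD 0.57, n = 8), against -2.54 in the IZ (SD 0.36, n = 9). The difference of -1.94 shows the larger change of Cxcl16 (exact permutation p = 4.11e-05, adjusted p = 0.000247), and all 9 IZ libraries lay below all sham libraries.

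The tested proteases that shed or trim chemokines were upregulated as well. Of 8 such genes 6 were tested and all 6 were higher, with a median log2 fold change of 2.48. Among all genes tested, 36.3% were higher. The 6 ran from Adam17, the main induced sheddase (0.94, SE 0.12, edgeR adjusted p = 4.61e-07), to the macrophage elastase Mmp12 (5.31, SE 0.42, edgeR adjusted p = 1.46e-10). Mmp12 had 23 counts over the sham libraries and passed the filter on low counts through the IZ. Adam10, the other sheddase of Cxcl16 and Cx3cl1, stood at 1.17 (SE 0.14, edgeR adjusted p = 6.91e-08). Mmp9 and Dpp4 did not pass the filter. Cathepsin S (Ctss) stands in this list and among the macrophage markers.

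The receptors of these chemokines split by how much of each was present. Cxcr4, the receptor of Cxcl12, measured 2.79, 5.15 and 9.85 CPM in sham and 27.5, 77.2 and 96.3 CPM in the IZ (log2 fold change 3.69, SE 0.25, edgeR adjusted p = 1.93e-11). Its lowest IZ value was replicate 1. Ackr3, the scavenging receptor that takes up Cxcl12, went the other way, from 79.0, 89.9 and 111 CPM to 9.46, 21.1 and 37.0 CPM (log2 fold change -2.09, SE 0.18, edgeR adjusted p = 5.51e-10). In Cxcr4 every IZ library lay above every sham library, which held for 16.6% of all genes tested. In Ackr3 every IZ library lay below, a direction for which no share of all genes is given here. Cxcl12, which both bind, did not pass the test.

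Cxcr6, the receptor of Cxcl16, had 6 counts over the 8 sham libraries and 309 over the IZ libraries, at 6.23 to 12.8 CPM (log2 fold change 4.31, SE 0.36, edgeR adjusted p = 5.12e-10). Cx3cr1, the receptor of Cx3cl1 on monocytes and macrophages, measured 2.70, 6.34 and 8.82 CPM in sham and 29.5, 33.6 and 51.3 CPM in the IZ (log2 fold change 2.65, SE 0.20, edgeR adjusted p = 6.56e-11). For both, every IZ library lay above every sham library, which held for 16.6% of all genes tested. Cxcr6 passed the filter on low counts through the IZ. Cxcr4 and Cx3cr1, with 78 and 82 counts over the sham libraries, also needed IZ libraries to pass it. So 3 of the 4 tested receptors were higher and 1 lower, beside 36.3% and 33.1% of all genes tested. Nothing is read from that count, or from the separation of these 3 receptors beside all genes.

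The receptors of the ELR chemokines and of Cxcl9 and Cxcl10 did not pass the filter on low counts. Cxcr1 had no count in any library. Cxcr2 had 5 counts in sham and 47 in the IZ, of which 24 came from replicate 2. Cxcr3 had 6 and 74 counts, at 0 to 1.64 CPM and 0.73 to 3.40 CPM. Cxcr5, the receptor of Cxcl13, had 0 counts in sham and 18 in the IZ. Ackr1, the chemokine-binding receptor of venules and red cells, had 3 and 47. Without the filter the log2 fold change of Cxcr2 was 1.70 (edgeR adjusted p = 0.0808) and that of Cxcr3 2.26 (edgeR adjusted p = 0.00338). For Cxcr5 it was 3.60 (edgeR adjusted p = 0.0136) and for Ackr1 2.57 (edgeR adjusted p = 0.00788).

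**Figure D3:**
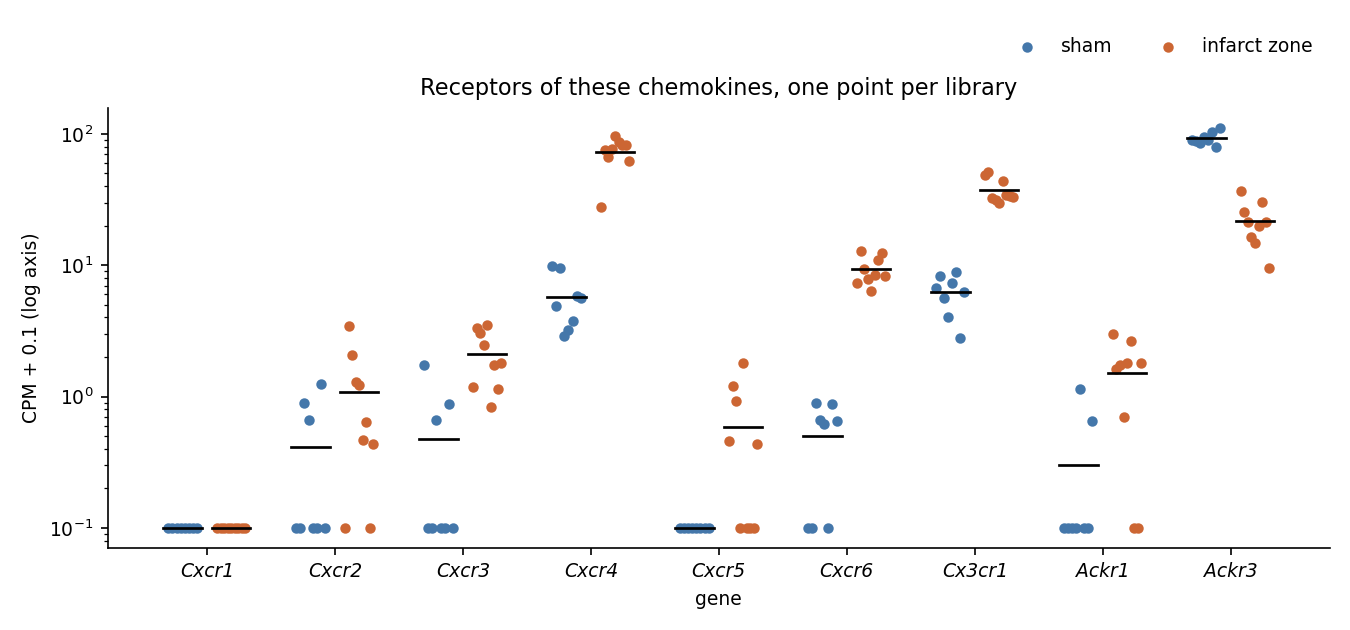
Level of 9 receptors of CXC and CX3C chemokines in CPM plus 0.1 on a log axis, with 1 point per library and a black line at each group's mean. Cxcr4, Cxcr6 and Cx3cr1 separate upward in the IZ and Ackr3 downward, and Cxcr1 sits at 0 throughout.

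None of 7 other CXC and XC chemokines reached the filter: Cxcl3, Ppbp, Cxcl11, Cxcl13, Cxcl15, Cxcl17 and Xcl1. Cxcl13, which draws B cells, was at 0 in all 8 sham libraries and had 128 counts in the IZ. Of these, 96 were in replicate 2 and 23 in replicate 3, and 2 IZ libraries had none. Cxcl11, the third Cxcr3 ligand, had 1 count in sham and 3 in the IZ.

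The summed level of the 10 chemokines averaged 261 CPM over the sham libraries (SD 33.7, n = 8) and 554 CPM over the IZ libraries (SD 145, n = 9), from 334 CPM in IZ replicate 1, the lowest IZ library, to 856 CPM in replicate 3. The lowest IZ sum lay just above the highest sham sum of 327 CPM. The makeup of the sum differed too. Cxcl12 gave 55.7 ± 4.10% of the members' counts in the sham hearts (SD, n = 8), against 31.1 ± 3.12% in the IZ (SD, n = 9), while its own level did not pass the test. Cxcl16 went from 5.67 ± 1.60% to 28.4 ± 7.02%, and Pf4 from 12.1 ± 1.83% to 24.1 ± 8.85%. Cxcl14 went from 11.1 ± 2.38% to 4.74 ± 3.02%, and Cxcl1 from 7.63 ± 2.80% to 1.40 ± 1.10%.

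**Figure D4:**
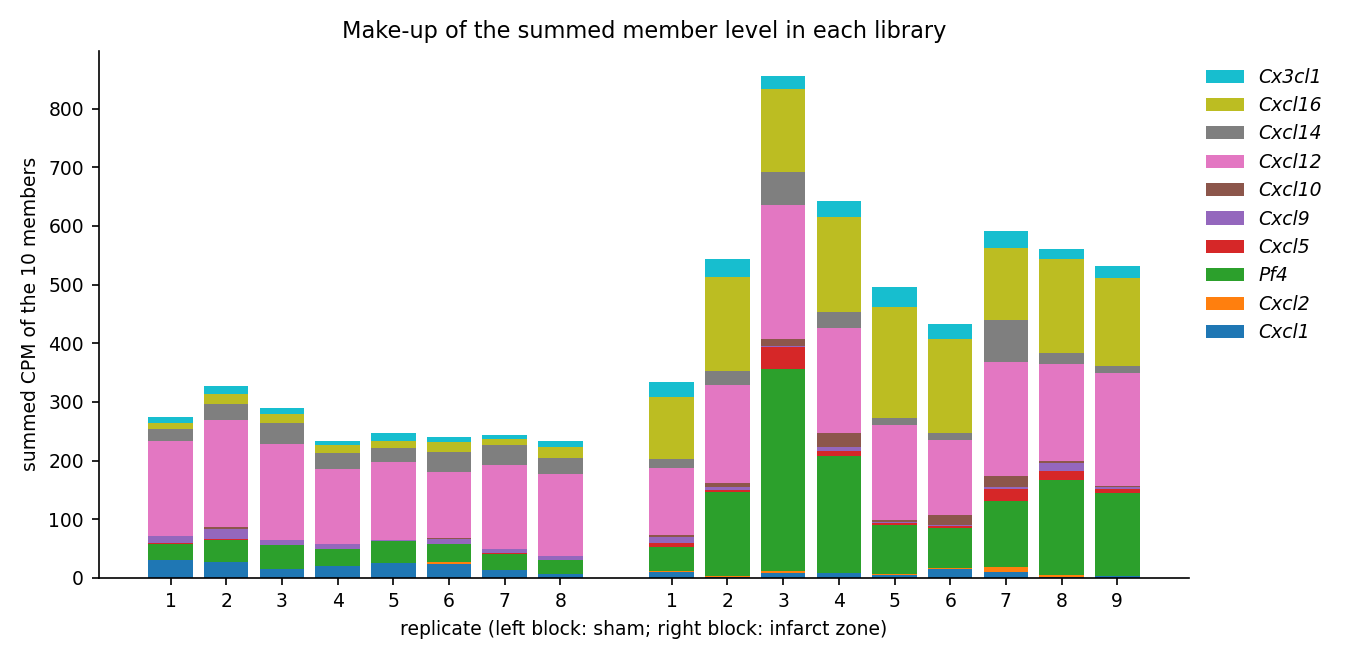
Summed CPM of the 10 chemokines in each library as stacked bars, 8 sham on the left and 9 IZ on the right, with each color a gene. Cxcl12 is the largest band of each sham bar, while Cxcl12, Cxcl16 and Pf4 together fill most of each IZ bar, and IZ replicate 3 is tallest at 856 CPM.

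In sham the order of mean level was Cxcl12, Pf4, Cxcl14, Cxcl1, Cxcl16, Cx3cl1, Cxcl9, and then Cxcl10, Cxcl2 and Cxcl5, all 3 below 1 CPM. Cxcl12 was above Pf4 in all 8 sham libraries and Cxcl9 above Cxcl10 in all 8. Pf4 was above Cxcl14 in 5 of 8, and Cx3cl1 above Cxcl9 in 3 of 8, so these neighbours did not differ beyond their spread. In the IZ the order was Cxcl12, Cxcl16, Pf4, Cxcl14, Cx3cl1, Cxcl5, Cxcl10, Cxcl1, Cxcl9 and Cxcl2. The leading 3 overlapped, with Cxcl12 above Cxcl16 in 7 of 9 libraries and Cxcl16 above Pf4 in 6 of 9. Pf4 was above Cxcl14 in all 9. Cxcl14 was above Cx3cl1 in 4 of 9.

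Members were next compared with each other over the 9 IZ libraries, in log2 CPM, for the 9 with a mean of at least 10 counts per library. None of the 36 pairs passed an adjusted p of 0.05 by Pearson r in the exact permutation test. At an unadjusted p under 0.05, 2 pairs passed by Pearson r and 3 by Spearman's rho, of which none passed after adjustment. The highest was Pf4 with Cxcl12 (r = 0.88, exact permutation p = 0.0019, adjusted p = 0.0688; Spearman's rho = 0.72, p = 0.0369, adjusted p = 0.442). Without the 2 libraries farthest from the median of Pf4, r was 0.64, and without IZ replicate 1 it was 0.79. Cxcl5 with Cxcl14 followed (r = 0.82, exact permutation p = 0.0077, adjusted p = 0.139; rho = 0.83, p = 0.0083, adjusted p = 0.298), with r = 0.51 without the farthest 2. Cxcl1 with Cxcl5 had an r of 0.06 and a rho of 0.03, with an exact permutation p of 0.869 for r. Cxcl9 with Cxcl10 had an r of -0.02 and a rho of 0.08, with an exact permutation p of 0.954 for r.

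**Figure D5:**
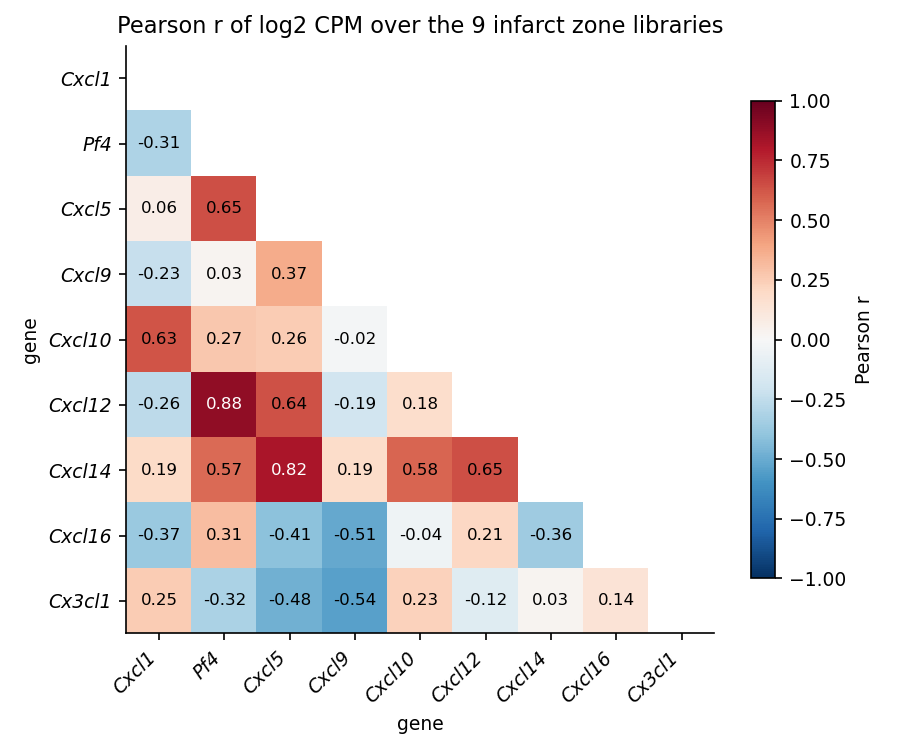
Pearson r of log2 CPM for each pair of 9 members over the 9 IZ libraries, with red for positive and blue for negative values. The darkest cells are Pf4 with Cxcl12 (0.88) and Cxcl5 with Cxcl14 (0.82), and none of the 36 pairs had an adjusted p under 0.05.

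Over the same 9 libraries, the tested genes most like each member were sought among 9153 genes that averaged 10 CPM or more in the IZ. These values describe 9 points that share depth and scaling, and the highest r over so many genes is high by its choice. For Pf4 they were the fatty acid carrier Fabp5 (r = 0.97) and the replication gene Mcm2 (0.96). For Cxcl12 they were the chemokine Ccl6 (0.95) and the replication gene Mcm5 (0.95). Cxcl14, high in replicates 3 and 7, was followed most closely by the cytokine inhibitor Socs3 (0.97) and the retinoic acid enzyme Aldh1a2 (0.97). For Cxcl16 they were Plekhj1 (0.98) and Bloc1s2 (0.98), for Cx3cl1 Kat6a (0.95) and Gm12669 (0.95), for Cxcl5 Eri1 (0.94) and Actl6a (0.89), and for Cxcl10 Mest (0.93) and Cmtm6 (0.93).

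Markers of the tissue's other cells moved strongly between the groups, beside all of the above. Of all genes tested, 36.3% were higher and 33.1% lower. All 10 cardiomyocyte markers were lower, from Actc1 (log2 fold change -2.12) to Tnni3 (-4.19), and all 10 were detected in every sham library. Of 10 fibroblast markers, 8 were higher and 1 lower, from Col1a1 (4.0) to Gsn (-2.42), with sums of 2590 to 4518 CPM in sham and 13305 to 21276 CPM in the IZ. Of 10 endothelial markers, 5 were lower and none higher, from Emcn (-0.04, not passing, and 1.04 with total counts alone) to Fabp4 (-1.72). Their sums were 1631 to 2885 CPM and 718 to 1374 CPM. The part of these cell types in the chemokine levels was not tested.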

How the data were processed

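The authors processed total RNA with the MACE-Seq kit, whose unique molecular identifiers mark single molecules, sequenced 3′ ends on a NextSeq 500, trimmed reads with Cutadapt 4.6, mapped them to mm10 and quantified transcripts with HTSeq. The deposited counts are raw whole-number counts per Ensembl gene, with 1 column per library. Whether molecules were collapsed, and whether strand was used, is not given in the sources used here. The labels name no batch.

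Symbols and coordinates came from GENCODE's GRCm38 annotation. Counts were tested with edgeR 4.0.16 (filterByExpr, TMM, quasi-likelihood F-test, R 4.3.3), in place of the study's DESeq2, with Benjamini-Hochberg adjustment over all genes tested and a threshold of 0.05. DESeq2 1.42.0 was an alternative. CPM used TMM-scaled library sizes, and log2 CPM a prior count of 1. Ratios and correlations were tested by exact two-sided permutation (SciPy 1.17.1). The edgeR fit was also run on simulated counts in which few genes changed, up and down alike. Such counts cannot check the scaling here, where 69.5% of all genes tested were called. In BLAST 2.17.0 the last 500 bases of no member's transcript matched another gene at 95% identity over 100 bases.

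All members were named, with all receptors, the highest and lowest tested gene of every other list, and, for members with at least 10 CPM in the IZ, the 2 genes most like each. One of the lists is not reported here. The members and lists were chosen with earlier results of these data known. Each animal gave 1 library. Replicate numbers only name libraries.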

Additional observations from a re-analysis of the deposited data

Results flagged for a closer look

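Of 20 groups of values looked at (10 chemokines in each of sham and IZ), 1 held a library far from the others, where chance flags about 1 in 20. It was Cxcl9 in sham replicate 5, the lowest of 8 libraries at 3 counts or 1.55 CPM. On the log2 CPM scale its gap to the next library was 0.553 of the group's whole range, above Dixon's critical value of 0.526 for 8 samples. On the CPM scale the same gap was 0.296 of the range, below that value. Without this library Cxcl9 was called lower in the IZ (log2 fold change -0.98, edgeR adjusted p = 0.0315).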

How the results depend on the processing

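Depth limits Cxcl2, Cxcl5 and Cxcl10 most, since 3 counts in a sham library stand for 1.16 to 2.38 CPM, and the counting error of these genes is large. With a mean of at least 50 counts required, 5239 genes were called in place of 8544, and 3 members in place of 6, since 4 of the 9 tested members were no longer tested. Without any filter 10664 genes were called, with DESeq2 10295, and with total counts alone 10727, of which 9203 were higher; upper quartile scaling gave 8622, of which 4966 were higher. Leaving out 1 library gave 7962 to 8614 genes, 5 to 7 members and 4 to 6 of the 6 ratios, against 5 with all libraries. Without IZ replicate 1, 6 members were called, 4 higher and 2 lower, with Cxcl9 added and Cxcl10 not tested. The filter removed Cxcl10 without any of IZ replicates 1 to 8, Cxcl5, Cxcl9 and Cxcl10 when thinned, and these and Cxcl1 with a mean of at least 50 counts, so that they had no value there.

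Values that changed sign were those of Cxcl9 (0.24 with total counts alone), Cxcl14 (1.08 with total counts alone, 0.0792 with upper quartile scaling, 0.0263 with no filter, 0.19 when thinned to the smallest total, and -0.26 to 0.0864 with 1 library left out), Ifngr2 (0.12 with total counts alone) and Emcn (1.04, 0.0733, 0.0204 and 0.13 under the same 4 settings, and -0.11 to 0.0509 with 1 library left out). The causes were not tested. The count of correlated member pairs was 1 with CPM from total counts and 0 to 1 with 1 library left out: Pf4 with Cxcl12, at r = 0.92 and, without IZ replicate 7, 0.93 (both with an adjusted p of 0.0357, exact permutation).

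Sham and IZ libraries with the same number share only a number. Over 8 such pairs the correlation of their deviations ran from -0.22 to 0.13, with 1 over 0.1, and 1 library correlated best with its own number. With the replicate number as a block 8079 genes and 7 members were called, Cxcl9 being added (-0.88, adjusted p = 0.0375).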
